A study of Brassica oleracea var. italica with 18 samples.

Results

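Some spots of the array lit up with RNA from one broccoli line and stayed dark with RNA from the other. The 250 probes described here were marked as well above background by the scanner software on all 9 arrays of the heat-sensitive line (HS) and on at most 1 of the 9 arrays of the heat-tolerant line (HT). They were selected on these marks, and where more probes passed, on their brightness in HS: 497 probes of 43603 met the rule, and the 250 with the highest mean log2 signal over the HS arrays were kept. The 250 probes stand for 244 targets, the sequences that the array was designed on, out of 40632. Of the 250, 208 were marked on no HT array and 42 on 1. The rule turned round, for probes marked on all 9 HT arrays and at most 1 HS array, gave 185 probes for 184 targets.

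The samples were shoot meristems of Brassica oleracea var. italica before head formation. The HS line was BR1 op and the HT line B295. The study's title calls both lines inbred, while its methods use that word for HT alone, so how uniform the HS plants were is not settled here. Each group stands for 1 line. Plants of each line were raised at 22 °C and then moved to chambers at 15, 22 or 27 °C. There were 18 arrays, 3 from each line in each chamber. By the methods, HS plants do not form heads in warm conditions, whereas HT plants do. The submitters call the replicates biological, and the sources used here do not say plainly whether plants were pooled for an array.

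A broccoli head begins at the shoot apical meristem, which stops making leaves and turns into an inflorescence meristem that branches over and over before flower buds arrest. Temperature acts on this switch, partly through the requirement for cold before flowering that many Brassica oleracea types have. Plant lines also differ in which genes they carry and express at all, since stretches of sequence can be present in one line and missing in another, and gene copies can be silent. An oligonucleotide array shows such a difference as a probe that is bright in one line and dark in the other. The same picture arises in general where a transcript is present but differs in sequence under the probe, and the design of this array rests largely on sequences of oilseed rape, Brassica napus, whose genome joins those of Brassica rapa and Brassica oleracea. Which of these applies to a given probe was not tested, since probe sequences and sequences of the lines were not analysed here. Other probes to the same target are the nearest measurement, and they are given below.

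None of the 250 probes was described in the gene tables used here, whose copies are incomplete, and none of their targets was found in the reference gene table, so probes and targets are given by their identifiers alone. Of the probes, 155 stand for the accession of a single sequence, 37 for a transcript assembly whose name begins with TA and 58 for one whose name begins with TC. These make 62%, 14.8% and 23.2% of the 250, against 63.4%, 19.3% and 17.3% of the 27413 probes marked on all 9 HS arrays. A probe was the only one of its target for 221 of the 250 (88.4%), against 84.3% of the 27413.

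Between 63.9% and 69.8% of all probes were marked well above background on an array and no probe was saturated. HS arrays held positions 1 and 3 of a slide and HT arrays positions 2 and 4, so line and array position cannot be told apart. Slides 1 to 3 each held the 22 °C and 27 °C arrays of one replicate number in both lines, while the 15 °C arrays were on slides 4 and 5, so slide and the step away from 15 °C cannot be told apart. On slides 1 to 3 the HS arrays at 22 °C were all at position 3 and those at 27 °C all at position 1, which likewise cannot be told apart. Of the fixed tissue markers only 2 had a probe in the tables used: CUC1, a boundary gene of the shoot meristem, had a mean of 7.14 in HS and 7.18 in HT on the log2 scale, and LFY, a regulator of floral identity, 8.49 in HS and 8.59 in HT, both marked on all 18 arrays.

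The 250 probes covered a wide range of brightness in HS. Their mean quantile-normalized log2 signal over the 9 HS arrays lay between 8.0 and 15.16 with a median of 9.92, close to the median of 9.96 of all probes marked on every HS array. In all, 118 probes had a mean of 10 or more and 37 had a mean of 12 or more, and 3 were among the 1000 brightest probes in HS. On the HT arrays the same probes had means between 1.87 and 4.12 with a median of 2.34, against 2.24 for the 8728 probes that were marked on no array of either line. A mean in HT above the 95th percentile of those 8728 probes, which was 2.97, was found for 32 of the 250.

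**Figure D1:**
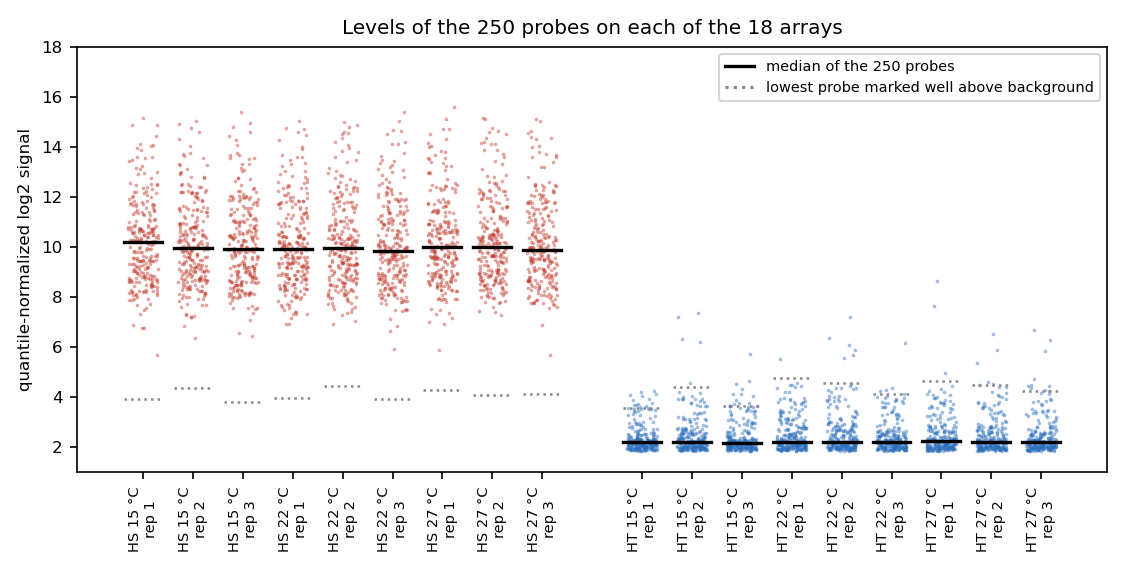
Quantile-normalized log2 signal (vertical axis) of the 250 probes on each of the 18 arrays (horizontal axis), HS arrays in red on the left and HT arrays in blue on the right. Each point is 1 probe, the black bar is the median of the 250 and the dotted bar is the lowest signal among probes marked well above background on that array. The medians lie between 9.85 and 10.2 on the HS arrays and between 2.17 and 2.23 on the HT arrays.

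Because HT was at background, the difference between the lines has only a lower bound. It was taken as the mean HS level minus the mean, over the HT arrays, of the probe's own level or the lowest level marked well above background on that array, whichever was higher. The HS signal was at least 13.2-fold higher than HT for each of the 250 probes, with a median bound of 49.1-fold (5.62 on the log2 scale) and a highest bound of 1744-fold. For 65 probes the bound was 100-fold or more. The rule chose these probes for this difference, so no test is given. Fewer cells that express a gene and less RNA per cell cannot be told apart in such bulk samples. With the normexp background correction the median bound was 3.69 on the log2 scale, so the folds given here are bounds under the main processing only. The bound held a similar size in each chamber, with medians of 67.6-fold at 15 °C, 40.2-fold at 22 °C and 45.7-fold at 27 °C. The lowest HS array lay above the highest HT array for 249 of the 250 probes, where 5.55% of all probes with a value on every array did so, and this too follows from the rule. The exception was A_46_P214804, whose HS signal of 5.92 on the third 22 °C array was below its HT signal of 6.07 on the second 22 °C array.

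The brightest probe, A_46_P097156 for target EE561214, ran between 15.00 and 15.41 on the 9 HS arrays. On the HT arrays it read 4.25, 3.93 and 4.04 at 15 °C, 3.24, 3.18 and 2.28 at 22 °C, and 2.32, 2.50 and 2.33 at 27 °C. All 9 HS arrays were near the top of the scale, and the 3 HT arrays at 15 °C stood above the other 6 while lying close to the detection limit, with 1 of them marked. The HS signal was at least 1744-fold higher. A_46_P194014 for CD821198 lay between 14.60 and 14.87 in HS and between 1.95 and 2.79 in HT, and A_46_P024836 for ES909403 between 14.34 and 14.65 in HS and between 2.38 and 2.97 in HT, with bounds of 1417-fold and 1216-fold. In HS these 3 probes were bright on every array.

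A mark on a single HT array came with signals from dim to far above background. Examples are given, as these probes were not sorted into classes. For A_46_P231489 (target CX193130), which read between 14.46 and 15.61 in HS, the first HT array at 27 °C read 7.66 while the other 8 HT arrays lay between 1.94 and 2.75. The same array read 8.65 for A_46_P378528 (target TC108444), whose other HT arrays lay between 2.01 and 4.44 and whose HS arrays lay between 9.77 and 10.13. The signal of these probes was thus far above background on 1 array of HT and near the floor on its replicates. In other cases the marked array was itself dim, as for A_46_P097156 with 4.25 on the first HT array at 15 °C. The marks on HT arrays were spread over all 9, with 11, 4 and 7 of the 250 probes at 15 °C, 1, 6 and 1 at 22 °C, and 3, 4 and 5 at 27 °C, and the highest count was on the first 15 °C array, where the lowest signal that counted as well above background was also the lowest of the 18 arrays, at 3.57.

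At the edges of the rule, the probe at position 250 had a mean raw log2 signal of 8.07 over HS (A_46_P232839) and the first left out, at position 251, also had 8.07 (A_46_P033571, 8.065 against 8.068). The dimmest of the 497 had 4.70. A further 55 probes were marked on all HS arrays and on 2 HT arrays. Over all 497 probes the median HS level was 8.01, and over the 185 probes detected only in HT the median HT level was 7.88. Means of 12 or more were held by 37 probes of the 497 in HS and by 21 of the 185 in HT.

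The 250 probes were less reproducible between HS replicates than other probes of the same brightness. The SD between the 3 HS arrays of a temperature, pooled over the temperatures, had a median of 0.34 on the log2 scale for the 250 probes, against 0.15 for the 20359 other probes marked on all HS arrays with a mean of 8 or more. The gap was seen in each class of brightness: 0.38 against 0.18 at mean levels of 8 to 9, 0.37 against 0.16 at 9 to 10, 0.29 against 0.15 at 10 to 11, 0.21 against 0.14 at 11 to 12, and 0.20 against 0.14 at 12 and over. Of the 250, 193 lay above the median of the others and 90 above their 95th percentile of 0.44. Under other scalings the 250 probes had a median of 0.34 (75th percentile shift) or 0.30 (normexp), and between 0.29 and 0.34 when any one HS array was left out. Probes detected only in HT did not show this on the HT arrays: the 89 with a mean of 8 or more had a median SD of 0.13, as had the 20524 other probes marked on all HT arrays. No test was made of these differences in spread, which are over probes that share the same arrays, and their cause was not tested.

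**Figure D2:**
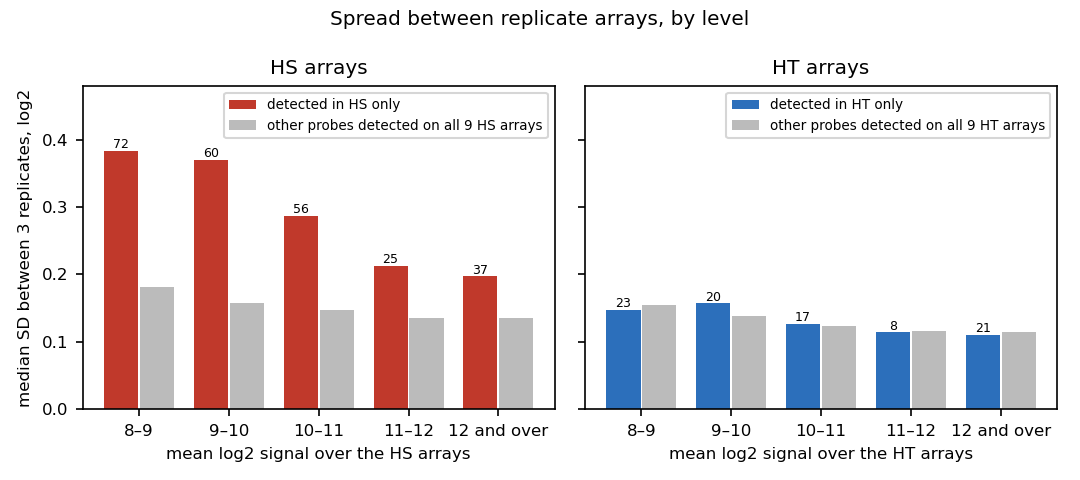
Median over probes of the SD between the 3 replicate arrays of a temperature, pooled over 15, 22 and 27 °C (vertical axis, log2), by mean signal (horizontal axis), on the HS arrays (left) and the HT arrays (right). Coloured bars are probes detected in one line only, with their number above, and grey bars are the other probes marked on all 9 arrays of that line. The red bars stand above the grey ones in every class in HS, and the blue and grey bars are of like height in HT.

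The highest and lowest HS arrays were 1.21 log2 units apart in the median of the 250 probes, against 0.57 for the others of that brightness. A range of 2 or more, a 4-fold difference between arrays of one line, was found for 59 of the 250 (23.6%) and for 3.01% of the others, and 17 of the 250 had a range of 3 or more. In 16 of the 59 a single array lay at least 1 log2 unit below all the rest, and in 3 a single array lay at least 1 unit above. No single array accounted for the wide ranges: the lowest value was on the first 15 °C array for 11 of the 59 and on each other HS array for 3 to 9, and the highest was on the first 15 °C array and the second 27 °C array for 12 each.

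The widest was A_46_P325210 for TC81636. It read 11.86, 12.16 and 11.51 at 15 °C, 12.02, 11.55 and 11.92 at 22 °C, and 5.88, 13.32 and 12.53 at 27 °C in HS. On the HT arrays it lay between 3.32 and 4.29. Thus 8 HS arrays were bright, while the first 27 °C array was much closer to the HT level. The same array was also the lowest for A_46_P337170 (TC89674), at 7.93 against 9.92 to 12.06 on the other HS arrays. A_46_P082176 (EE427706) read 5.69 on the first 15 °C array and between 7.73 and 9.56 on the other 8.

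The rule did not use temperature, so the change with temperature within HS was tested. In HS at 27 °C against 15 °C, 26 of the 250 probes were higher and 19 lower (limma, adjusted p under 0.05 over 43603 probes). This is a share like that of the array as a whole: 7.95% of all probes were called higher and 8.04% lower, or 11.3% and 11.6% of the 27413 probes marked on all HS arrays. At 22 °C against 15 °C, 5 were higher and 12 lower, where 3.03% and 3.22% of all probes, and 4.4% and 4.52% of the marked ones, were called. At 27 °C against 22 °C, 7 were higher and 3 lower, where 1.26% and 0.949% of all probes, and 1.69% and 1.38% of the marked ones, were called. In all, 48 of the 250 were called in 1 or more of these 3 comparisons, and 202 in none. Of the 59 probes with a range of 2 or more in HS, 12 were among these 48, a share like that of all 250. The median change of the 250 at 27 °C against 15 °C was 0.05 on the log2 scale, and the median size of the change in either direction was 0.35, against 0.22 for all probes marked on the HS arrays.

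These counts depended on the scaling and on the arrays in the fit. The main fit took 1 spread per probe from both lines, and the rule had chosen probes that were near background on most HT arrays. Their SEs and p-values for changes in HS therefore do not measure the HS spread alone. With only the HS arrays fitted, 18 were higher and 17 lower at 27 °C against 15 °C. That fit gave 0 higher and 8 lower at 22 °C against 15 °C, and 2 higher and 0 lower at 27 °C against 22 °C. With arrays scaled by their 75th percentile, 13 probes were called higher and 8 lower at 27 °C against 15 °C, 0 higher and 4 lower at 22 °C against 15 °C, and 3 higher and 1 lower at 27 °C against 22 °C. They also moved by over 1.5 times with single HS arrays. For 27 °C against 15 °C, 14 were higher without the first 27 °C array, 17 were higher and 12 lower without the second 27 °C array, and 11 were lower without the first 15 °C array. For 22 °C against 15 °C, 3 were higher without the first 22 °C array, 1 without the second, and 11 without the third, where 7 were lower. For 27 °C against 22 °C, 4 were higher without the first array of either temperature.

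**Figure D3:**
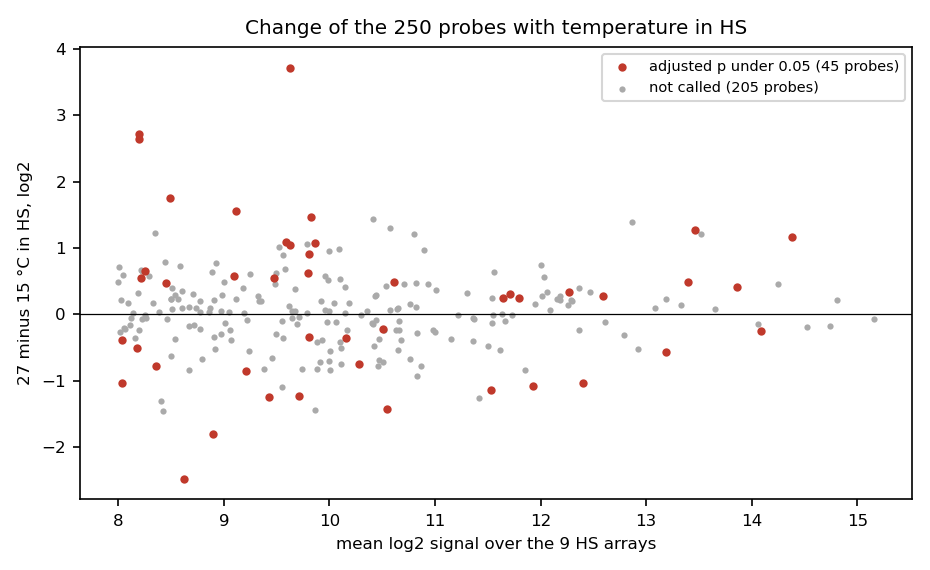
Change of each of the 250 probes in HS at 27 °C minus 15 °C (vertical axis, log2) against its mean log2 signal over the 9 HS arrays (horizontal axis). Red points are the 45 probes with an adjusted p under 0.05 and grey points the other 205, and the changes run between -2.47 and 3.72.

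The steepest rise belonged to A_46_P032638 for EE439349. It read 8.84, 8.40 and 6.58 at 15 °C, 9.36, 9.16 and 9.28 at 22 °C, and 11.59, 10.98 and 12.43 at 27 °C in HS. All 3 arrays at 27 °C lay above all others. The change at 27 °C against 15 °C was 3.72 ± 0.45 (SE; adjusted p = 0.000105) and that at 27 °C against 22 °C, which were compared on the same slides, 2.40 ± 0.45 (adjusted p = 0.0133). On the HT arrays it stayed between 2.09 and 2.22 at every temperature, and that small spread was pooled into these SEs.

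A_46_P117209 for EV127427 read 6.77, 7.31 and 6.46 at 15 °C, 8.87, 8.55 and 7.12 at 22 °C, and 9.56, 9.65 and 9.48 at 27 °C in HS. The 27 °C arrays again lay above all others, with a rise of 2.72 ± 0.77 over 15 °C (SE; adjusted p = 0.0292). The call was lost when any 27 °C array, or the first or the third 15 °C array, of HS was left out, with adjusted p between 0.0611 and 0.0878. Over the refits made for single probes the adjusted p ran between 0.000114 and 0.0878.

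The steepest fall was that of A_46_P050596 for EE564422, which read 9.10, 10.96 and 9.98 at 15 °C, 8.59, 8.29 and 8.10 at 22 °C, and 7.31, 8.42 and 6.88 at 27 °C in HS. All 15 °C arrays lay above all warmer ones. It fell by 2.47 on the log2 scale at 27 °C against 15 °C (SE 0.47, adjusted p = 0.00289). A_46_P352055 for TC97583 read 10.38, 9.88 and 9.99 at 15 °C, 9.05, 6.92 and 8.96 at 22 °C, and 6.92, 8.97 and 8.98 at 27 °C, a fall by 1.80 (SE 0.54, adjusted p = 0.0384). The first 27 °C array, at 6.92, carried part of this fall, which was smaller without it (log2 change -1.11, adjusted p = 0.148), and the call was also lost without any one of the 15 °C arrays, with slide as a random block and with the 75th percentile shift. Over the refits made for single probes its adjusted p ran between 0.00946 and 0.148.

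Other probes to the same target bear on whether a target as a whole was dark in HT. Of the 244 targets, 221 had no probe but the one described here. The other 23 targets held 29 of the 250 probes, 2 dimmer probes that also met the rule, and 23 other probes that did not meet it. The rule had already set apart probes that were dark in HT, so how many of these 23 were marked in HT is partly fixed by it. Of these 23 other probes, 22 were marked on all 9 HS arrays and 17 on all 9 HT arrays. Averaged over the 3 temperatures, 18 were higher in HS than in HT, 2 were lower and 3 were not called (limma, adjusted p under 0.05), where 15.1% of all probes were higher in HS and 20.9% lower. Of the 18, 5 belong to the single target EV153811, so the 18 are not independent. The targets fell into groups by what their other probes read.

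In 3 targets another probe was marked on every HT array at a level that was not higher in HS. For TA30491_3708, A_46_P243059 read 11.27, 12.21 and 12.78 at 15 °C, 12.41, 12.41 and 11.48 at 22 °C, and 12.39, 12.23 and 12.48 at 27 °C in HS, and between 2.13 and 2.29 on the 9 HT arrays. The other probe, A_46_P165074, lay between 12.71 and 13.18 in HS and between 12.84 and 13.27 in HT. Thus 1 probe of this target separated the lines by at least 241-fold, while the other overlapped between them and differed by -0.14 ± 0.05 (HS minus HT, log2, SE; adjusted p = 0.0229).

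For TA29359_3708, which had 3 probes, A_46_P161644 averaged 9.12 ± 0.39 in HS and 2.12 ± 0.30 in HT (SD, n = 9 each). A_46_P348460 averaged 9.92 ± 0.39 in HS and 5.96 ± 0.70 in HT, a difference of 3.95 ± 0.14 (SE; limma adjusted p = 2.2e-11), and A_46_P264783 13.08 ± 0.09 in HS and 13.33 ± 0.09 in HT, a difference of -0.25 ± 0.04 (adjusted p = 0.000327). The 3 probes of 1 target therefore gave 3 different pictures of the lines. For ES903798, A_46_P277878 lay between 9.07 and 10.93 in HS and between 1.90 and 5.51 in HT, while A_46_P140219 averaged 13.13 in HS and 13.28 in HT and A_46_P007781 averaged 11.81 in HS and 12.10 in HT, differences of -0.15 ± 0.24 and -0.29 ± 0.25 that were not called. Without the first 27 °C array of HS both were called lower in HS, by -0.39 (adjusted p = 0.00483) and -0.54 (adjusted p = 0.000696). Over the refits made for single probes the adjusted p ran up to 0.988 and 0.672.

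In 10 targets, with 12 of the 250 probes, another probe was marked on every HT array but was higher in HS. In several the difference was small beside that of the probe described here. In TA34635_3708, A_46_P178594 had a mean of 8.91 in HS and 1.92 in HT, and A_46_P308820 had 10.85 in HS and 10.52 in HT, a difference of 0.33 ± 0.06 (SE; limma adjusted p = 0.000302). In EV173749, A_46_P081421 had 11.22 in HS and 2.67 in HT, and A_46_P215844 had 10.40 in HS and 9.84 in HT, a difference of 0.56 ± 0.08 (adjusted p = 0.000111). CN731230, DY011327, EE438668, EV184564 and TA23373_3708 likewise had another probe that was between 1.39-fold and 2.93-fold higher in HS. For EE438668 and DY011327 that probe was itself dim, with means of 5.95 in HS and 5.48 in HT, and of 6.70 and 5.68. Their log2 differences depended on the processing. Over the refits made for single probes they ran between 0.21 and 0.66, and between 0.57 and 1.21.

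In TA28604_3708 and TA30275_3708 the other probe was also much dimmer in HT. A_46_P331890 of TA28604_3708 averaged 14.30 ± 0.19 in HS and 6.53 ± 0.23 in HT (SD, n = 9 each), a difference of 7.77 ± 0.05 (SE; limma adjusted p = 1.76e-19), beside A_46_P159384 with 13.86 in HS and 1.87 in HT. A_46_P164444 of TA30275_3708 averaged 13.28 in HS and 8.18 in HT, a difference of 5.10 ± 0.06 (adjusted p = 4.29e-17), beside A_46_P378293 with 13.40 in HS and 2.34 in HT. On both targets every HT array was marked for the other probe, so a signal was measured in HT for them.

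**Figure D4:**
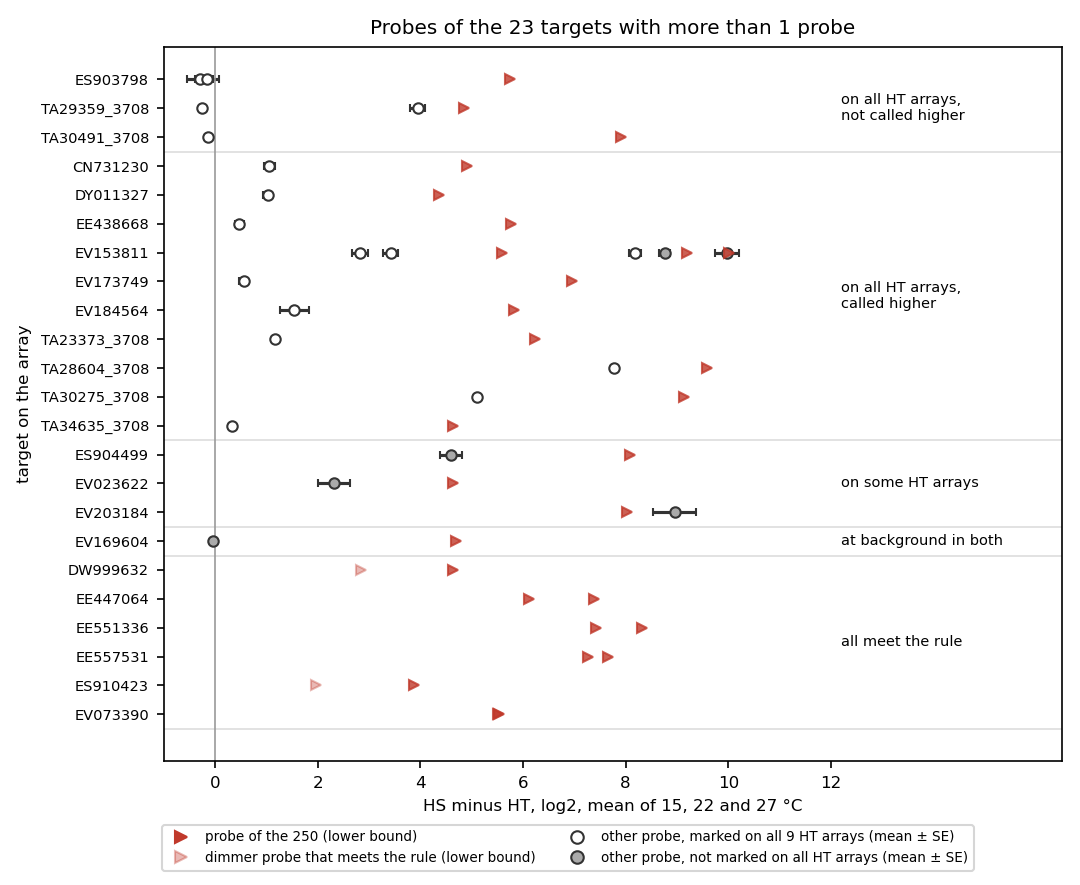
HS minus HT (horizontal axis, log2, mean of 15, 22 and 27 °C) for each probe of the 23 targets with more than 1 probe (rows), grouped by how the other probes read. Red triangles are lower bounds for probes that meet the rule, circles the fitted difference of the other probes with its SE, open where the probe was marked on all 9 HT arrays and grey where it was not, so that its HT level rests in part on background. Each target of the top group has an open circle near 0, the open circles spread between 0.33 and 8.18 in the second, and no circle appears for the 6 targets at the bottom, all of whose probes meet the rule.

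EV153811 had 8 probes, the most of any target here, and the difference between the lines varied widely among them. In HS, 7 of them averaged between 13.46 and 14.39, and A_46_P279678 averaged 9.86. In HT the same 8 averaged 1.96 (A_46_P279678), 2.49 (A_46_P280758), 3.90 (A_46_P134104), 4.31 (A_46_P220329), 5.07 (A_46_P270063), 6.16 (A_46_P283383), 10.58 (A_46_P261633) and 11.56 (A_46_P288948). The first 3 of these are among the 250, and the last 3 were marked on all 9 HT arrays, while A_46_P220329 was marked on 4 and A_46_P270063 on 5. The difference between the lines was at least 1029-fold for A_46_P134104 and 7.11-fold for A_46_P288948 (2.83 ± 0.16 on the log2 scale, SE; limma adjusted p = 3.32e-09).

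All 8 probes of EV153811 were higher in HS at 27 °C than at 15 °C, by 1.08 to 1.35 on the log2 scale, and the change was called for every probe except A_46_P220329 (1.17, adjusted p = 0.0663). In HT the brightest probes rose too: A_46_P288948 by 2.34 (adjusted p = 7.77e-05), A_46_P261633 by 2.27 (adjusted p = 5.75e-05) and A_46_P283383 by 1.2 (adjusted p = 0.00152). The dimmer A_46_P270063, marked on 5 HT arrays, rose by 0.62 (limma adjusted p = 0.0386). A_46_P220329, marked on 4, was not called (log2 change -0.46, limma adjusted p = 0.503). A_46_P288948 read 10.14, 9.70 and 10.79 at 15 °C, 12.31, 11.40 and 12.07 at 22 °C, and 12.36, 12.40 and 12.89 at 27 °C in HT. The difference between the lines in this rise was not called for any of the 5 other probes (adjusted p between 0.41 and 0.99). Thus the bright probes of this target gave a signal in HT that changed with temperature, while 3 probes of the same target were at or near background on those arrays.

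**Figure D5:**
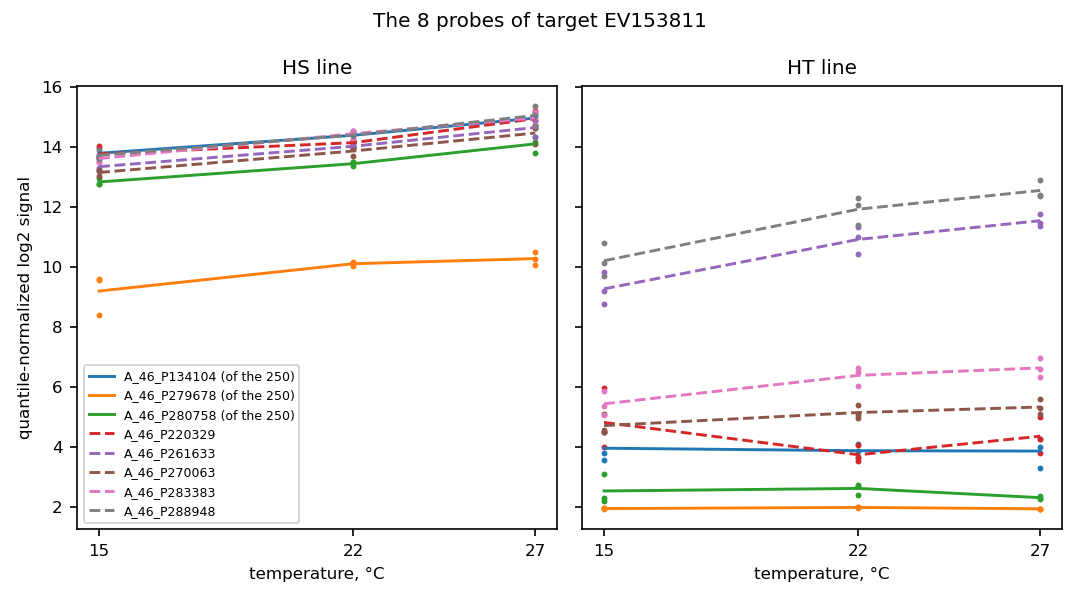
Quantile-normalized log2 signal (vertical axis) of the 8 probes of target EV153811 at 15, 22 and 27 °C (horizontal axis) in HS (left) and HT (right). Points are arrays and lines join the means of 3 arrays, solid for the 3 probes among the 250 and dashed for the other 5. The points lie between 8.41 and 15.36 in HS and between 1.94 and 12.89 in HT.

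In 3 targets the other probe was marked on some HT arrays only. A_46_P238594 of ES904499 was marked on 8 HT arrays and averaged 10.19 in HS and 5.60 in HT, A_46_P238829 of EV023622 on 2 HT arrays with 6.06 in HS and 3.75 in HT, and A_46_P014397 of EV203184 on 2 HT arrays with 11.79 in HS and 2.84 in HT. All 3 were called higher in HS. In EV169604 the other probe was marked on no array of either line, with a mean of 2.09 in HS and 2.13 in HT.

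In 6 targets every probe met the rule: EE447064, EE551336, EE557531 and EV073390 with 2 of the 250 probes each, and DW999632 and ES910423 with 1 and a dimmer one. For these targets no probe on the array gave a signal on more than 1 HT array. The pair of EE557531 also changed alike with temperature in HS. A_46_P213259 read 12.57, 12.42 and 12.32 at 15 °C, 12.09, 12.04 and 11.83 at 22 °C, and 11.37, 11.55 and 11.16 at 27 °C, and A_46_P096426 read 12.21, 12.05 and 11.97 at 15 °C, 11.74, 11.65 and 11.35 at 22 °C, and 10.89, 11.18 and 10.76 at 27 °C. Arrays of the 3 temperatures did not overlap for either probe, and both fell at 27 °C against 15 °C, by 1.07 (adjusted p = 2.05e-05) and by 1.13 (adjusted p = 0.000121).

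Within HS, probes of one target mostly changed the same way. In 47 of 53 pairs from 22 targets the change at 27 °C against 15 °C had the same sign, with a median gap of 0.08 on the log2 scale. Since 28 of the pairs come from EV153811 alone, the count outside it was 19 of 25. Signs were counted whether or not a change was called, and both probes of a pair were read on the same arrays. The share in pairs of other targets was not computed, so the count does not set these targets apart.

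TA30275_3708 was an exception. In HS its probe A_46_P378293 read 12.93, 13.11 and 13.34 at 15 °C, 13.31, 13.61 and 13.46 at 22 °C, and 13.57, 13.87 and 13.42 at 27 °C, and rose by 0.50 at 27 °C against 15 °C (adjusted p = 0.0246). Its other probe, A_46_P164444, read 13.47, 13.55 and 13.59 at 15 °C, 13.16, 13.23 and 13.23 at 22 °C, and 13.09, 13.21 and 13 at 27 °C, and fell by 0.44 (adjusted p = 0.0102). The probes of this target thus changed in opposite directions in HS. The rise of A_46_P378293 had an adjusted p of 0.215 with the 75th percentile shift and between 0.0513 and 0.107 without the first or second array at 15 °C or 27 °C. Over the refits made for single probes it ran between 0.0155 and 0.216.

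The spread between HS replicates could also be set beside another probe of the same target. For 18 of the 250 probes, in 16 targets, another probe that did not meet the rule was marked on all HS arrays. In 6 of them the SD between HS replicates was at least 2 times that of the brightest other probe, while the reverse was seen in 0. The rest lay on both sides of equality. In DY011327, EE438668 and TA23373_3708, among others, the other probe varied more, with SD ratios (probe of the 250 over the other) of 0.52, 0.60 and 0.68. In TA34635_3708 it was 0.41 for A_46_P178594 and 0.04 for A_46_P308820, in TA30491_3708 it was 0.54 for A_46_P243059 and 0.10 for A_46_P165074, and in TA29359_3708 it was 0.42 for A_46_P161644 and 0.10 for A_46_P264783. The probe A_46_P348460 of TA29359_3708, which was dim but detected in HT, had 0.39. TA34635_3708, TA30491_3708 and TA29359_3708 had the largest of these ratios. In them the probe that is dark in HT varied among the HS arrays more than a brighter probe that was bright in both lines.

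ES903798 behaved otherwise, since all of its probes varied in HS. A_46_P140219 read 13.45, 13.32 and 13.68 at 15 °C, 13.42, 12.73 and 13.09 at 22 °C, and 14.25, 11.95 and 12.29 at 27 °C in HS, and A_46_P277878 had its highest and lowest values on the same HS arrays, 10.93 on the first and 9.07 on the second at 27 °C. The SD between replicates of A_46_P140219 was 0.75 in HS and 0.09 in HT, and that of A_46_P007781 0.79 in HS and 0.09 in HT. ES903798 was not alone in this. Both probes of ES904499 had wide spreads, with SDs between HS replicates of 0.64 and 0.65. Those of EV184564 had 0.74 and 0.64. The cause of these differences was not tested.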

How the data were processed

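The authors deposited, for each array, scanner output of Agilent's Feature Extraction 10.7.1.1, with a background-corrected intensity for each spot and, per the file headers, other marks (0 or 1) for well above background, saturation and outliers. A second set of log2 values, deposited by the authors, matched log2 intensities shifted by the 75th percentile of their array and then centred per probe on its median (99.8% within 0.01), and served only as an alternative.

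Control spots and outlier spots were left out and spots of a probe averaged, which gave 43603 probes, 165 without a value on some array. Log2 intensities were quantile-normalized, since the methods name RMA, and fitted in limma 3.58.1 (R 4.3.3, with statmod 1.5.0), using a mean per combination of line and temperature across the 18 arrays (12 residual degrees of freedom). p-values were adjusted by Benjamini-Hochberg over all probes and are two-sided. Calls were made at an adjusted p under 0.05, whatever the fold. The p-values measure only the spread between these samples, pooled over HS and HT. That spread may be technical. Counts, bounds and spreads were computed with Python 3.11.15, numpy 2.4.6 and pandas 2.3.3, and figures were drawn with matplotlib 3.10.9. Arrays have no read depth, so their number limits the precision. The fit was also tried on simulated data for 27 °C against 15 °C in HS (43603 probes). It recovered 93% of probes changed 2.83-fold and 100% of those changed 8-fold, and called 11 unchanged probes. These rates were not computed for the probes described here, so they do not give the recovery or the false calls among them. Those probes were near background on most HT arrays. Between HS replicates they had a median SD of 0.34, against 0.15 for other bright probes.

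The probes, lists and tests were chosen with earlier results of these data known. Named probes are the 5 brightest, those with the largest rise and the largest fall at 27 °C against 15 °C in HS among called probes, up to 12 with the brightest other probe of their target, and the 3 brightest marked on 1 HT array. Probes named for their spread, A_46_P378528, A_46_P214804 and other targets were chosen after their values were seen. Gene lists by description were not counted, as no probe here had one. The replicate numbers share a slide for 22 and 27 °C, and deviations of same-numbered HS arrays correlated between 0.118 and 0.395 there, between 0.153 and 0.397 for 15 and 22 °C, and between -0.18 and 0.00255 for 15 and 27 °C. Alternatives were the 75th percentile shift, normexp correction (offset 50), the authors' values, replicate or slide as a block, only HS arrays or only probes marked on all HS arrays, a fold of at least 2, an adjusted p under 0.1, the methods' t-test, other detection rules and leaving out each array. Refits for changes with temperature and line differences of single probes were the shift, normexp, the authors' values, both blocks and leaving out an array. They left out the t-test and the fits of only HS arrays or only probes marked in HS.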

Additional observations from a re-analysis of the deposited data

Results flagged for a closer look

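A_46_P331890, the other probe of target TA28604_3708, changed differently with temperature in the lines. At 27 °C against 15 °C it was higher by 0.43 on the log2 scale in HS (adjusted p = 0.00683) and fell by 0.42 in HT (adjusted p = 0.00594), and the difference between the lines in this change was 0.852 ± 0.132 (SE; limma interaction, adjusted p = 0.0144). In HS it read 14.00, 14.12 and 14.10 at 15 °C and 14.46, 14.54 and 14.49 at 27 °C. In HT it read 6.60, 6.68 and 6.84 at 15 °C and 6.26, 6.16 and 6.42 at 27 °C. The adjusted p was 0.0979 with the 75th percentile shift, where the difference was 0.70, and 0.0988 with the authors' values. It ran between 0.00399 and 0.0988 over the refits of this difference. Groups of 3 arrays were not screened for single distant arrays.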

How the results depend on the processing

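In all, 291 probes met the rule with the mark for a positive and significant signal in place of well above background, against 497. The other rules gave 380 (0 on all 9 HT arrays), 552 (at least 7) and 496 (probes with an outlier mark on any array left out). Leaving out each array gave 498 to 533. These other rules, and leaving out an array, either only loosen or only tighten the main rule. The direction in which the count could move was therefore fixed in advance. The counts of the 250 probes called in HS, as higher and lower, were 26 and 19 for 27 °C against 15 °C, 5 and 12 for 22 °C against 15 °C and 7 and 3 for 27 °C against 22 °C, and changed by over 1.5 times as follows. For 27 °C against 15 °C they were 13 and 8 with the 75th percentile shift and also with the authors' values, 41 and 33 with normexp, 5 and 4 with the methods' t-test (adjusted) and 11 and 9 with a fold of at least 2. For 22 °C against 15 °C they were 0 and 4 with the shift and the authors' values, 14 and 25 with normexp, 0 and 0 with the t-test and 0 and 2 with a fold of at least 2, and the higher count was 0 with only HS arrays fitted, 8 with only probes marked in HS and 10 at an adjusted p under 0.1. For 27 °C against 22 °C they were 3 and 1 with the shift and the authors' values, 0 and 0 with the t-test, 4 and 1 with a fold of at least 2 and 2 and 0 with only HS arrays fitted, and the higher count was 15 with normexp. Leaving out each HS array gave 14 to 29 higher and 11 to 20 lower for 27 °C against 15 °C, 1 to 11 and 7 to 15 for 22 °C against 15 °C, and 4 to 8 and 2 to 4 for 27 °C against 22 °C. The replicate block gave 31 and 20, 7 and 16, and 7 and 4 in that order and moved no count by over 1.5 times.

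Of the other probes of the same targets, 18 were called higher in HS under each alternative tried except a fold of at least 2, which left 15. The 2 called lower became 1 with the t-test, 0 with a fold of at least 2 and 2 to 4 without 1 array (4 without HS at 27 °C, replicate 1). The median bound of 5.62 log2 became 3.69 with normexp and 5.52 to 5.68 without 1 array. For single probes, no called direction turned in 1176 refits of named temperature changes, where 60 lost a call and 15 gained one. Most of these changes were not called in the main fit and had no call to lose, so 60 of 1176 is not a rate of loss. No called direction turned in 529 refits of differences between lines, where 2 gained a call. Why calls were lost was not tested. The limits are the layout of the slides, 3 arrays for each group, and a background that leaves only bounds in HT.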
